A study of Homo sapiens with 12 samples.

Results

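Interferon response genes are the genes that cells switch on when a virus is sensed or when interferon binds its receptor. The 51 genes described here were taken by name from the table of 55765 gene symbols counted in every library, and all 51 had enough counts to be among the 17727 genes tested. By role, 5 are RNA sensors, 8 are receptor chains and transcription factors of the pathway, 21 are antiviral effectors, 5 belong to the ISG15 pathway, 6 are PARP, DTX3L and TRIM proteins and 6 have other or less settled roles. They were followed across the 4 groups of an RNA-seq study of T47D, a luminal breast cancer cell line that carries the estrogen and progesterone receptors. The study asked whether PRMT1, an enzyme that methylates arginines in histones and other proteins, is needed for the expression response to a progestin. Transfection was with an siRNA of nonspecific sequence (siCT) or one that depletes PRMT1 (siPRMT1), followed by 10 nM of R5020, a synthetic progestin, or the same volume of its ethanol vehicle for 6 h. In the sample titles the ethanol libraries are called T0 and the R5020 libraries T6H. Each of the 4 groups (siCT ethanol, siCT R5020, siPRMT1 ethanol and siPRMT1 R5020) holds 3 replicates that the labels call biological, all from this 1 line. The labels name no treatment with interferon and no infection.

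In the pathway, RNA sensors such as RIG-I (DDX58) and MDA5 (IFIH1) recognise viral RNA in the cytoplasm and signal through MAVS to IRF3 and IRF7, which switch on interferon genes. Secreted type I interferon binds the receptor chains IFNAR1 and IFNAR2, and the kinases JAK1 and TYK2 then activate STAT factors, STAT2 among them. The resulting complex ISGF3, which also holds IRF9, binds an interferon-stimulated response element (ISRE) in the promoters of its targets. IRF factors can bind the same element without interferon, and many tumour cell lines keep a basal level of these genes.

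The match to that element shows in the promoters themselves. RefSeq promoters (GRCh38.p14, 250 bases before to 50 after each transcription start) were at hand for 40 of the 51 genes, DDX58 under its newer name RIGI. The ISRE core was searched as GAAA and GAAA with any 2 bases between them, which reads TTTC and TTTC on the other strand, and was present in 26 of the 40 genes (65.0%), against 1195 of 27305 genes in the whole table (4.38%). In the 250 bases before the start alone the shares were 57.5% and 3.71%. The STAT dimer element GAS, searched as TTCNNNGAA, was present in 12 of the 40 genes (30%) and in 9.38% of all genes, and its matches can overlap those of the ISRE. The palindromic progesterone response element, searched as GNACA and TGTNC with any 3 bases between them, was present in 0 of the 40 genes and in 0.480% of all genes. These matches are letters in a window of the reference and say nothing of what was bound in these cells. The stretches below are shown because they carry the ISRE core in genes that differed in opposite directions in the results that follow. They run 5′ to 3′ on the gene's own strand, all bases lie before the start site, and capitals mark each ISRE match. IFIT3, IFI27 and DDX60 had higher counts with siPRMT1, OAS3, PARP14 and BST2 had lower counts with siPRMT1, HERC5 was higher with R5020 and IFI44L was lower with R5020.
IFIT3: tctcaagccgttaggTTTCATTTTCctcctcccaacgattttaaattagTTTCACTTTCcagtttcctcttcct
IFI27: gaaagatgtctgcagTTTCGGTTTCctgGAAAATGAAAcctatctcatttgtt
DDX60: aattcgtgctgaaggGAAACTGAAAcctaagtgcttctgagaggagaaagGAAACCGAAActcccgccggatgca
OAS3: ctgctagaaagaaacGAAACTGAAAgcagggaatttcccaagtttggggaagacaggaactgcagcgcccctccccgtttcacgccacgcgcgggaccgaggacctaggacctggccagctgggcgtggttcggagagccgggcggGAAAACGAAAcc
PARP14: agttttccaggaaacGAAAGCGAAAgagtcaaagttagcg
BST2: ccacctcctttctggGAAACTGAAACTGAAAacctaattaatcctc
HERC5: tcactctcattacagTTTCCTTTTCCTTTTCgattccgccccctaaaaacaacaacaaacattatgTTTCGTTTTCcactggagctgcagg
IFI44L: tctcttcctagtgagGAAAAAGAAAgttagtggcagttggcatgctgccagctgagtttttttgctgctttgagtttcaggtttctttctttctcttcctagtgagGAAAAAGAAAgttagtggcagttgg
The IFIT3 stretch is chr10:89327826-89327899 on the plus strand, IFI27 is chr14:94110613-94110665 on the plus strand, DDX60 is chr4:168318781-168318855 on the minus strand and OAS3 is chr12:112938316-112938473 on the plus strand. PARP14 is chr3:122680795-122680834 on the plus strand, BST2 is chr19:17405730-17405775 on the minus strand, HERC5 is chr4:88456979-88457069 on the plus strand and IFI44L is chr1:78620269-78620399 on the plus strand. The BST2 and HERC5 stretches hold overlapping ISRE matches, and the 2 matches of IFI44L lie in a segment whose letters are repeated. In IFI27 and BST2 1 GAS match overlaps an ISRE match.

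Library totals ran from 26783525 to 34120937 counts, and the counts of single members ran from 39 for HERC5 to 25456 for IFI6 in any library. The targeted gene matched its label: with siCT, PRMT1 was at 37.5 ± 7.83 CPM in ethanol and 43.0 ± 6.89 CPM in R5020, and with siPRMT1 at 8.23 ± 0.268 CPM in ethanol and 7.08 ± 0.258 CPM in R5020 (SD, n = 3). CPM is the count scaled to a common library total, after TMM scaling of that total. Luminal markers were present in every library. Over 10 genes they summed, with siCT, to between 7702 and 10523 CPM in ethanol and 6492 and 7700.2 CPM in R5020, and with siPRMT1 to between 15648 and 16226 CPM in ethanol and 11744 and 12539 CPM in R5020. The sums were thus higher in every siPRMT1 library than in the siCT libraries of the same treatment and lower with R5020, and their part in the results was not tested. Of 9 leukocyte markers, which matter because blood cells express interferon genes, the summed level was with siCT 1.36 to 2.62 CPM in ethanol and 1.72 to 2.38 CPM in R5020, and with siPRMT1 1.77 to 1.84 CPM in ethanol and 1.38 to 1.92 CPM in R5020. Among them NKG7 had 0 counts in all 12 libraries and PTPRC, the pan-leukocyte marker CD45, had 0 counts in 8. Fibroblast and endothelial markers summed to between 30.3 and 85.1 CPM, with COL1A1 at 28.4 to 78.9 CPM, and were highest in siCT ethanol. A pair of libraries stood apart: mitochondrial counts made up 59.3% of siCT ethanol replicate 3 and 52.4% of siCT R5020 replicate 1, while the other 10 libraries held 31.3% to 38.3%. Both are siCT libraries. Values without the pair are therefore given for the counts of members and for each member's average effect whose call it changes. They are not given for single genes outside the 51. Without the pair 2 libraries remain in each siCT group. The part of mitochondrial RNA in any result was not tested.

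Within the non-mitochondrial counts, the 51 genes together made up, with siCT, 0.719% to 0.742% in ethanol and 0.557% to 0.573% in R5020, and with siPRMT1 0.661% to 0.664% in ethanol and 0.569% to 0.593% in R5020. The ranges of ethanol and R5020 libraries did not overlap with either siRNA. This sum is led by the few genes with the most counts. In bulk RNA, fewer responding cells and less RNA per cell cannot be told apart.

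PRMT1 siRNA split the interferon genes. Averaged over ethanol and R5020, 7 members rose and 24 fell. The 7 that rose were OASL, IFIT2, IFIT3, IFI27 and RSAD2, which are antiviral effectors, and DDX60 and IFIH1, which are helicases of RNA sensing. Among the 24 that fell were SAMD9L, DHX58, TRIM21, IFITM1, IRF7 and OAS3. A member is called risen or fallen at an adjusted p under 0.05 from edgeR (quasi-likelihood), adjusted by Benjamini-Hochberg over all 17727 genes. Over all tested genes the same fit called 21.6% raised and 26.9% lowered, so the 7 of 51 raised members (13.7%) were a smaller share than the background and the 24 lowered members (47.1%) a larger one. The median log2 difference was -0.28 over the members and -0.05 over all tested genes. In ethanol alone, 6 members rose and 19 fell, against 13.6% raised and 19.2% lowered of all genes. In R5020 alone, 7 rose and 13 fell, against 11.5% and 14.2%. These comparisons do not share libraries. In both of them 6 members rose (11.8%, against 8.85% of all genes) and 13 fell (25.5%, against 11.6%), and 0 changed in opposite directions, which was also rare over all genes (0.0226% and 0.0338%). In R5020 alone, leaving out siPRMT1 R5020 replicate 2 or replicate 3 cut the 13 lowered members to 6 or 8, against 7.43% and 8.3% of all genes. The members that fell in both comparisons were not recounted in those fits. Without the pair high in mitochondrial RNA the average effect raised 8 members and lowered 32, against 27.7% and 30.3% of all genes. In ethanol it was then 7 raised and 29 lowered, against 20.2% and 24.6%, and in R5020 10 raised and 20 lowered, against 19.5% and 19.9%. With library totals in place of TMM scaling, 5 members (9.8%) were lowered in R5020, close to the 9.51% of all genes. In ethanol that scaling gave 6 raised and 7 lowered, against 7.47% and 9.57%.

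R5020 mostly lowered the genes it changed. On average over both siRNAs, 4 members rose (HERC5, SP110, IRF1 and DHX58) and 16 fell, led by TRIM25, MX2, IFI44L, SAMD9L and IFI44. All tested genes were called raised in 13.2% and lowered in 12%, so the 4 raised members (7.84%) lay below the background and the 16 lowered ones (31.4%) above it. The medians were -0.21 over the members and -0.02 over all genes. In siCT cells, 2 members rose and 11 fell, against 7.59% and 5.43% of all genes. In siPRMT1 cells 3 rose and 6 fell, against 9.3% and 6.08%. With both siRNAs 2 members rose (3.92%, against 6.1% of all genes) and 6 fell (11.8%, against 3.67%). In siCT cells alone, the 2 raised members became 1 without siCT R5020 replicate 2 or replicate 3, against 5.73% and 5.95% of all genes. In siPRMT1 cells alone, the 6 lowered members became 11 without siCT ethanol replicate 3, against 10.1% of all genes. They became 3 without siPRMT1 ethanol replicate 1 or replicate 3, against 3.71% and 3.72%. Without siPRMT1 R5020 replicate 1 they became 2 (3.92%), close to the 3.66% of all genes. The members called with both siRNAs were not recounted in those fits. Without the pair the average effect raised 4 and lowered 25 members, against 18.3% and 19% of all genes. In siCT cells it was then 3 raised and 21 lowered, against 11% and 9.15%, and in siPRMT1 cells 5 raised and 15 lowered, against 15.8% and 13.5%. With library totals in place of TMM scaling, 6 members were lowered in siCT cells, against 4.01% of all genes. In siPRMT1 cells 4 were then lowered, against 6.58%.

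**Figure D1:**
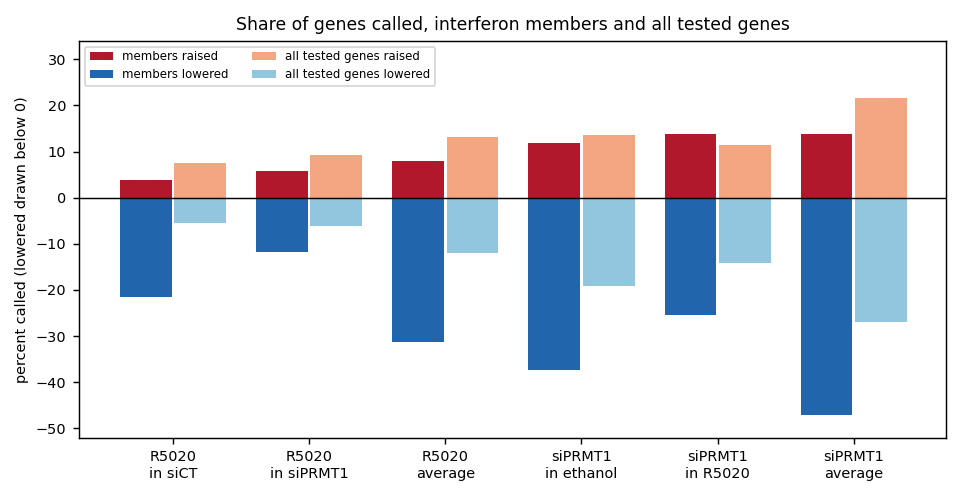
Percent of genes called raised (above 0) or lowered (below 0) in each comparison, with the 51 interferon response genes as dark bars and all 17727 tested genes as light bars. Lowered members exceed the background in all 6 comparisons, while raised members exceed it only for siPRMT1 in R5020. With library totals in place of TMM the lowered members no longer stand out for siPRMT1 in R5020 (9.8% against 9.51%). For R5020 in siPRMT1 they are then 4 of 51, against 6.58% of all genes. Raised members are then 6 of 51 for siPRMT1 in ethanol, against 7.47% of all genes.

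No difference between the R5020 effects in siPRMT1 and siCT cells passed the test for any member. The interaction called 0 members raised and 0 lowered, and over all genes 0.0451% and 0.0338%. With DESeq2 the members' count was also 0. At an unadjusted p under 0.05 edgeR gave 6 members (DHX58, IFI44L, DDX58, IFITM3, TRIM21 and IFIT3), against 4.06% of all genes, and DESeq2 gave 7, against 4.22%. The number was 12 without the pair (8.49% of all genes), 10 with voom quality weights (6.63%) and 0 with library totals alone (3.09%), with 0 members called in each. The smallest adjusted p was 0.475, for DHX58, and 0.0965 without the pair. In 45 of the 51 members the fitted interaction was above 0, so that the R5020 effect was less negative or more positive in siPRMT1 cells, with a median of 0.18 on the log2 scale. Over all genes 56% were above 0 and the median was 0.04. All these values share the same 12 libraries. With library totals in place of TMM scaling 30 of 51 were above 0, against 33.1% of all genes. Leaving out siCT ethanol replicate 1 or replicate 3 gave 36 of 51, against 53.6% and 45.7% of all genes. The larger number of lowered members in siCT cells is therefore not shown to be a difference between the siRNAs.

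Joining both average effects, which are read from the same 12 libraries, 5 members fell with siPRMT1 and with R5020, 5 rose with siPRMT1 and fell with R5020, and 2 fell with siPRMT1 and rose with R5020. The same classes held 3.84%, 2.82% and 3.69% of all genes, against 9.8%, 9.8% and 3.92% of the members. A further 17 fell with siPRMT1 alone in these calls (33.3%, against 19.3% of all genes), and 6 fell with R5020 alone (11.8%, against 5.39%). Another 2 rose with siPRMT1 alone (3.92%, against 15.8%) and 2 with R5020 alone (3.92%, against 6.59%). The remaining 12 passed in neither (23.5%, against 39.6%). The 5 lowered by both were SAMD9L, TRIM25, MX2, IFI44L and USP18. The 5 that rose with siPRMT1 and fell with R5020 were OASL, IFIT2, IFIT3, RSAD2 and DDX60. DHX58 and IRF1 fell with siPRMT1 and rose with R5020. No member rose with both, a class that held 2.93% of all genes.

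**Figure D2:**
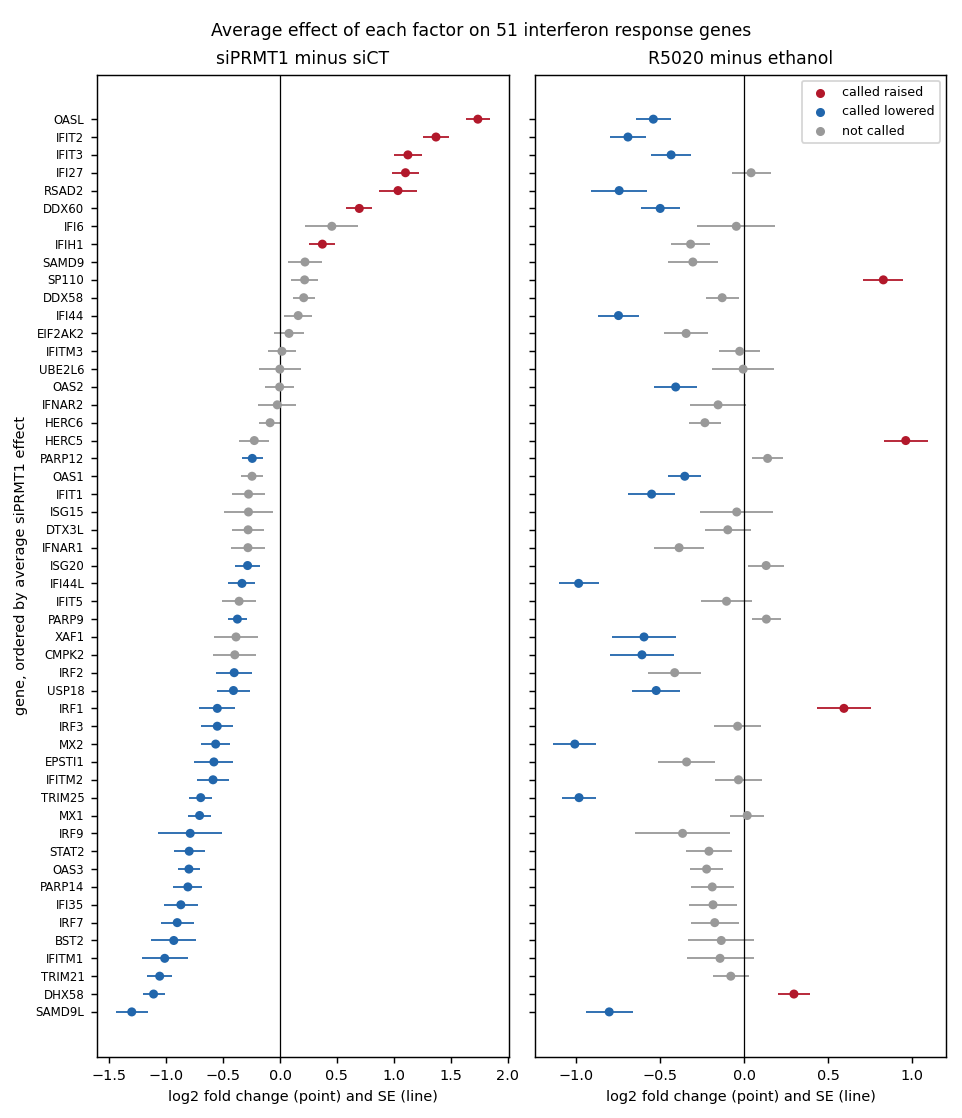
Average log2 fold change of each of the 51 genes (points) with its standard error (lines), for siPRMT1 minus siCT on the left and R5020 minus ethanol on the right, with called genes in colour. OASL stands at 1.74 and SAMD9L at -1.30 for siPRMT1, and HERC5 at 0.96 and MX2 at -1.01 for R5020.

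Among the 5 RNA sensors, siPRMT1 raised 2 and lowered 1, against 21.6% and 26.9% of all genes. DHX58 encodes LGP2, a relative of RIG-I that lacks the signalling domains and tunes the response of the other sensors. Its level was 34.9, 28.5 and 34.1 CPM in ethanol and 33.7, 31.9 and 28.7 CPM in R5020 with siCT, and 12.2, 12.7 and 10.7 CPM in ethanol and 17.2, 18.8 and 19.5 CPM in R5020 with siPRMT1. Every siPRMT1 library lay below every siCT library. With siPRMT1 the effect was -1.11 ± 0.10 (SE), adjusted p = 3.28e-06, on the log2 scale as are all effects here. The siPRMT1 R5020 libraries lay above the siPRMT1 ethanol ones without overlap, with a log2 difference of 0.64 ± 0.14 (SE), adjusted p = 0.00558, while the siCT ranges overlapped (-0.05, adjusted p = 0.888). Their average was 0.30 ± 0.10 (SE), adjusted p = 0.0372, a call lost in 8 of the 12 fits that leave out 1 library, with adjusted p up to 0.108.

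DDX60 encodes a helicase reported to act with the RIG-I-like sensors. It was measured at 20.6, 29.4 and 22.7 CPM in ethanol and 13.0, 16.4 and 17.0 CPM in R5020 with siCT, and 32.7, 34.6 and 39.0 CPM in ethanol and 25.3, 29.9 and 28.1 CPM in R5020 with siPRMT1. Within each treatment all siPRMT1 libraries lay above all siCT libraries, and within each siRNA all R5020 libraries lay below the ethanol ones. For siPRMT1 the log2 effect was 0.70 ± 0.12 (SE), adjusted p = 0.000385, and the R5020 effect -0.50 ± 0.12 (SE), adjusted p = 0.00556. IFIH1, which encodes the sensor MDA5, moved less, with a siPRMT1 effect of 0.37 ± 0.11 (SE), adjusted p = 0.0165, and its level ran from 28.6 to 57.6 CPM. DDX58 itself passed only for siPRMT1 in R5020 (0.51 ± 0.14 (SE), adjusted p = 0.0175), a call lost in 4 of the 12 fits that leave out 1 library with adjusted p up to 0.0609, and its siPRMT1 effect in ethanol was -0.10 (adjusted p = 0.615). The R5020 effect on IFIH1 was -0.32 (adjusted p = 0.0564), and -0.31 ± 0.09 (SE), adjusted p = 0.0164 without the pair. EIF2AK2, the RNA-activated kinase PKR that halts translation, ran from 75.0 to 155 CPM and was called in no comparison with all 12 libraries. Without the pair its R5020 effect passed (-0.37 ± 0.10 (SE), adjusted p = 0.00929).

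Of the 8 receptor chains and transcription factors, 6 fell with siPRMT1 and 0 rose, against 26.9% and 21.6% of all genes. The 6 were IRF7, STAT2, IRF9, IRF3, IRF1 and IRF2. IRF7, the factor that amplifies interferon production, was at 16.8, 9.03 and 10.4 CPM in ethanol and 9.73, 10.7 and 9.96 CPM in R5020 with siCT, and 6.12, 6.41 and 5.85 CPM in ethanol and 6.27, 5.47 and 5.48 CPM in R5020 with siPRMT1. All 6 siPRMT1 libraries lay below all 6 siCT libraries, and siCT ethanol replicate 1 was the highest. The siPRMT1 effect was -0.90 ± 0.14 (SE), adjusted p = 0.000288, and R5020 gave -0.18 (adjusted p = 0.428). STAT2, a subunit of ISGF3, ran from 27.1 to 75.6 CPM, also without overlap between the siRNAs, with a siPRMT1 effect of -0.80 ± 0.14 (SE), adjusted p = 0.000451. Its highest values were in the pair high in mitochondrial RNA, and the effect was -0.58 ± 0.07 (SE), adjusted p = 3.25e-05 without them.

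IRF9, the DNA-binding subunit of ISGF3 from the IRF family, was low, at 1.86 to 8.09 CPM, and its siPRMT1 effect of -0.79 ± 0.28 (SE), adjusted p = 0.0342 rested on that pair. It was at 3.63, 3.16 and 8.09 CPM in siCT ethanol, the third of these being the library high in mitochondrial RNA, and without the pair the effect was -0.24 ± 0.14 (SE), adjusted p = 0.151. The call was also lost in 7 of the 12 fits that leave out 1 library. IRF3, the factor activated first after sensing, gave -0.55 ± 0.14 (SE), adjusted p = 0.00647 with siPRMT1. IRF2, which binds the same element and often opposes IRF1, gave -0.40 ± 0.16 (SE), adjusted p = 0.0491, but the call was lost in 10 of the 12 fits that leave out 1 library, with adjusted p up to 0.118. IRF1 was at 6.38, 4.90 and 3.88 CPM in ethanol and 5.37, 9.07 and 7.71 CPM in R5020 with siCT, and 3.58, 3.54 and 2.94 CPM in ethanol and 6.04, 4.88 and 4.82 CPM in R5020 with siPRMT1. The siCT ranges overlapped between treatments and those of siPRMT1 did not. IRF1 fell with siPRMT1 (-0.55 ± 0.16 (SE), adjusted p = 0.0121) and rose with R5020 (0.59 ± 0.16 (SE), adjusted p = 0.0141) on average, though it passed in neither R5020 comparison alone. Without the pair it passed as raised in both, at 0.56 ± 0.18 (SE), adjusted p = 0.042 in siCT, and 0.64 ± 0.15 (SE), adjusted p = 0.00803 in siPRMT1 cells. The receptor chains IFNAR1 and IFNAR2 ran from 49.6 to 108 and 1.32 to 2.52 CPM and were called in no comparison with all 12 libraries. Without the pair R5020 effects passed as lowered for IFNAR1 (-0.35 ± 0.10 (SE), adjusted p = 0.0156), IRF2 (-0.45 ± 0.07 (SE), adjusted p = 0.000303) and IRF9 (-0.39 ± 0.14 (SE), adjusted p = 0.0418).

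Of the 21 effectors, siPRMT1 raised 5 and lowered 8, against 21.6% and 26.9% of all genes. R5020 raised 0 and lowered 10 of the 21, against 13.2% and 12%. OASL encodes a relative of the oligoadenylate synthetases that has lost the enzyme activity and enhances RIG-I signalling. Its level was 41.9, 34.5 and 28.8 CPM in ethanol and 21.1, 23.0 and 21.1 CPM in R5020 with siCT, and 106, 104 and 106 CPM in ethanol and 73.5, 81.0 and 86.8 CPM in R5020 with siPRMT1. Every siPRMT1 library lay above every siCT library. The siPRMT1 effect of 1.74 ± 0.11 (SE), adjusted p = 2.68e-07 was the largest rise among the 51 genes. With R5020 the libraries fell without overlap within each siRNA, with an average effect of -0.54 ± 0.10 (SE), adjusted p = 0.00166.

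IFIT2 and IFIT3, neighbours on chromosome 10, encode proteins that bind foreign RNA and act in complexes with IFIT1. IFIT2 was at 31.1, 41.8 and 28.7 CPM in ethanol and 17.7, 21.9 and 21.2 CPM in R5020 with siCT, and 83.8, 84.5 and 85.7 CPM in ethanol and 52.3, 54.5 and 55.6 CPM in R5020 with siPRMT1. IFIT3 was at 60.6, 83.8 and 53.9 CPM in ethanol and 35.8, 41.8 and 44.2 CPM in R5020 with siCT, and 122, 117 and 119.8 CPM in ethanol and 97.1, 112 and 110.3 CPM in R5020 with siPRMT1. For both genes every siPRMT1 library lay above every siCT library, and every R5020 library lay below the ethanol libraries of the same siRNA. With siPRMT1 the effect was 1.37 ± 0.11 (SE), adjusted p = 1.82e-06 for IFIT2 and 1.12 ± 0.12 (SE), adjusted p = 1.56e-05 for IFIT3. The R5020 effect was -0.69 ± 0.11 (SE), adjusted p = 0.000312 for IFIT2, and -0.44 ± 0.12 (SE), adjusted p = 0.0152 for IFIT3. For their relatives on the same chromosome the fitted values lay below 0: the siPRMT1 effects of IFIT1 and IFIT5 were -0.28 (adjusted p = 0.123) and -0.36 (adjusted p = 0.0667). Both passed as lowered without the pair, at -0.40 and -0.52. IFIT1 fell with R5020 (-0.55 ± 0.14 (SE), adjusted p = 0.0111), and IFIT5 passed in no comparison with all libraries.

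IFI27 and IFI6 encode related small membrane proteins found at mitochondria and the endoplasmic reticulum. IFI27 was at 125, 102 and 157 CPM in ethanol and 136, 113 and 115 CPM in R5020 with siCT, and 247, 257 and 257 CPM in ethanol and 278, 278 and 292 CPM in R5020 with siPRMT1. All siPRMT1 libraries lay above all siCT libraries, with an effect of 1.10 ± 0.12 (SE), adjusted p = 1.59e-05. Its R5020 effect was 0.04 (adjusted p = 0.847), unlike those of OASL and IFIT2 in value, a difference that was not tested. IFI6, named after its values were seen, was at 400.2, 368 and 905 CPM in ethanol and 702, 362 and 366 CPM in R5020 with siCT, and 686, 677 and 661 CPM in ethanol and 782, 699 and 738 CPM in R5020 with siPRMT1. Its siCT values split by library: the pair high in mitochondrial RNA stood above every other siCT library. For siPRMT1 the log2 effect was 0.45 ± 0.23 (SE), adjusted p = 0.121 with all 12 libraries, and 0.93 ± 0.05 (SE), adjusted p = 1.72e-07 without the pair.

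RSAD2, the antiviral enzyme viperin, was at 7.52, 10.4 and 15.8 CPM in ethanol and 6.98, 4.55 and 4.97 CPM in R5020 with siCT, and 17.7, 17.9 and 20.8 CPM in ethanol and 12.6, 14.7 and 13.6 CPM in R5020 with siPRMT1. In each treatment the siPRMT1 range lay above the siCT range, and siCT ethanol replicate 3 came nearest to it. The siPRMT1 effect was 1.04 ± 0.17 (SE), adjusted p = 0.000343, and the R5020 effect -0.74 ± 0.17 (SE), adjusted p = 0.00492. CMPK2, the nucleotide kinase gene next to RSAD2 on chromosome 2, was low, at 2.26 to 7.11 CPM. Its siPRMT1 effect had the other sign, -0.40 (adjusted p = 0.0968), and -0.60 ± 0.12 (SE), adjusted p = 0.00141 without the pair. With R5020 it gave -0.61 ± 0.19 (SE), adjusted p = 0.0294, a call lost in 7 of the 12 fits that leave out 1 library.

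The oligoadenylate synthetases OAS1, OAS2 and OAS3 make the short oligoadenylates that switch on RNase L. They lie side by side on chromosome 12, and counts of such close relatives depend on how shared reads were assigned. OAS3 was at 190.5, 165 and 149 CPM in ethanol and 130.2, 149 and 143 CPM in R5020 with siCT, and 89.4, 99.1 and 95.4 CPM in ethanol and 89.0, 78.7 and 80.8 CPM in R5020 with siPRMT1. Every siPRMT1 library lay below every siCT library, with an effect of -0.80 ± 0.10 (SE), adjusted p = 4.7e-05. The R5020 effect on OAS3 was -0.22 (adjusted p = 0.12), and without the pair -0.25 ± 0.06 (SE), adjusted p = 0.00964. For OAS1 and OAS2 the siPRMT1 effects were -0.25 (adjusted p = 0.055) and -0.00 (adjusted p = 0.987). Without the pair both passed as lowered by siPRMT1, OAS1 at -0.32 ± 0.05 (SE), adjusted p = 0.000412, and OAS2 at -0.13 ± 0.05 (SE), adjusted p = 0.0456. With all libraries both passed as lowered by R5020, at -0.35 ± 0.10 (SE), adjusted p = 0.0177 for OAS1, and -0.41 ± 0.13 (SE), adjusted p = 0.0329 for OAS2. Those calls were lost in 1 of the 12 fits that leave out 1 library for OAS1 (without siPRMT1 ethanol replicate 1, adjusted p = 0.0524) and in 9 of the 12 for OAS2.

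MX1 and MX2, neighbouring genes on chromosome 21, encode dynamin-like proteins that trap viral nucleocapsids. MX1 was at 433, 349 and 336 CPM in ethanol and 328, 339.8 and 334 CPM in R5020 with siCT, and 200.4, 207 and 199 CPM in ethanol and 244, 221 and 228 CPM in R5020 with siPRMT1. All siPRMT1 libraries lay below all siCT libraries, and the R5020 and ethanol ranges overlapped in siCT cells. The siPRMT1 effect on MX1 was -0.71 ± 0.10 (SE), adjusted p = 0.000155, and its R5020 effect was 0.02 (adjusted p = 0.93). MX2 was at 5.94, 6.05 and 4.87 CPM in ethanol and 2.66, 2.43 and 3.15 CPM in R5020 with siCT, and 3.44, 3.83 and 3.94 CPM in ethanol and 1.62, 2.15 and 1.92 CPM in R5020 with siPRMT1. It was lower in every R5020 library than in any ethanol library of the same siRNA, and lower with siPRMT1 within each treatment. The R5020 effect was -1.01 ± 0.13 (SE), adjusted p = 4.77e-05, and the siPRMT1 effect -0.56 ± 0.13 (SE), adjusted p = 0.00288.

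SAMD9L, a restriction factor that also limits cell growth, gave the largest fall with siPRMT1 among the 51 genes, -1.30 ± 0.14 (SE), adjusted p = 1.68e-05. Its level was 13.2, 21.4 and 20.9 CPM in ethanol and 12.6, 9.04 and 9.87 CPM in R5020 with siCT, and 7.59, 7.16 and 7.54 CPM in ethanol and 3.88, 4.37 and 4.63 CPM in R5020 with siPRMT1. The siPRMT1 libraries lay below every siCT library, and the siPRMT1 R5020 libraries were lowest of all. With R5020 the effect was -0.80 ± 0.14 (SE), adjusted p = 0.000705. SAMD9, its paralog and neighbour on chromosome 7, was called in no comparison, with a siPRMT1 effect of 0.22 (adjusted p = 0.235).

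BST2, or tetherin, holds budding virus at the cell surface, and IFITM1, IFITM2 and IFITM3 block the entry of enveloped viruses. BST2 was at 87.2, 71.4 and 162 CPM in ethanol and 128, 69.2 and 77.0 CPM in R5020 with siCT, and 51.8, 52.1 and 53.8 CPM in ethanol and 46.7, 52.4 and 53.6 CPM in R5020 with siPRMT1. IFITM1 was at 122, 102 and 230.0 CPM in ethanol and 150.3, 89.0 and 84.6 CPM in R5020 with siCT, and 63.6, 60.3 and 53.6 CPM in ethanol and 75.0, 63.6 and 64.7 CPM in R5020 with siPRMT1. In both genes all siPRMT1 libraries lay below all siCT libraries, and the pair high in mitochondrial RNA held the highest values. With siPRMT1 the effect was -0.93 ± 0.20 (SE), adjusted p = 0.00202 for BST2 with all libraries, and -0.55 ± 0.07 (SE), adjusted p = 6.36e-05 without the pair. For IFITM1 it was -1.01 ± 0.20 (SE), adjusted p = 0.0013, and -0.63 ± 0.08 (SE), adjusted p = 4.56e-05 without the pair. IFITM2 gave -0.59 ± 0.14 (SE), adjusted p = 0.00384, whereas IFITM3 was called in no comparison (0.02, adjusted p = 0.923) with all libraries and, without the pair, passed as raised by siPRMT1 in R5020 (0.43 ± 0.16 (SE), adjusted p = 0.047). The IFITM genes are near-identical neighbours on chromosome 11, so the division of counts among them is uncertain. ISG20, an exonuclease, gave -0.28 ± 0.11 (SE), adjusted p = 0.0432 with siPRMT1, a call lost in 9 of the 12 fits that leave out 1 library.

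**Figure D3:**
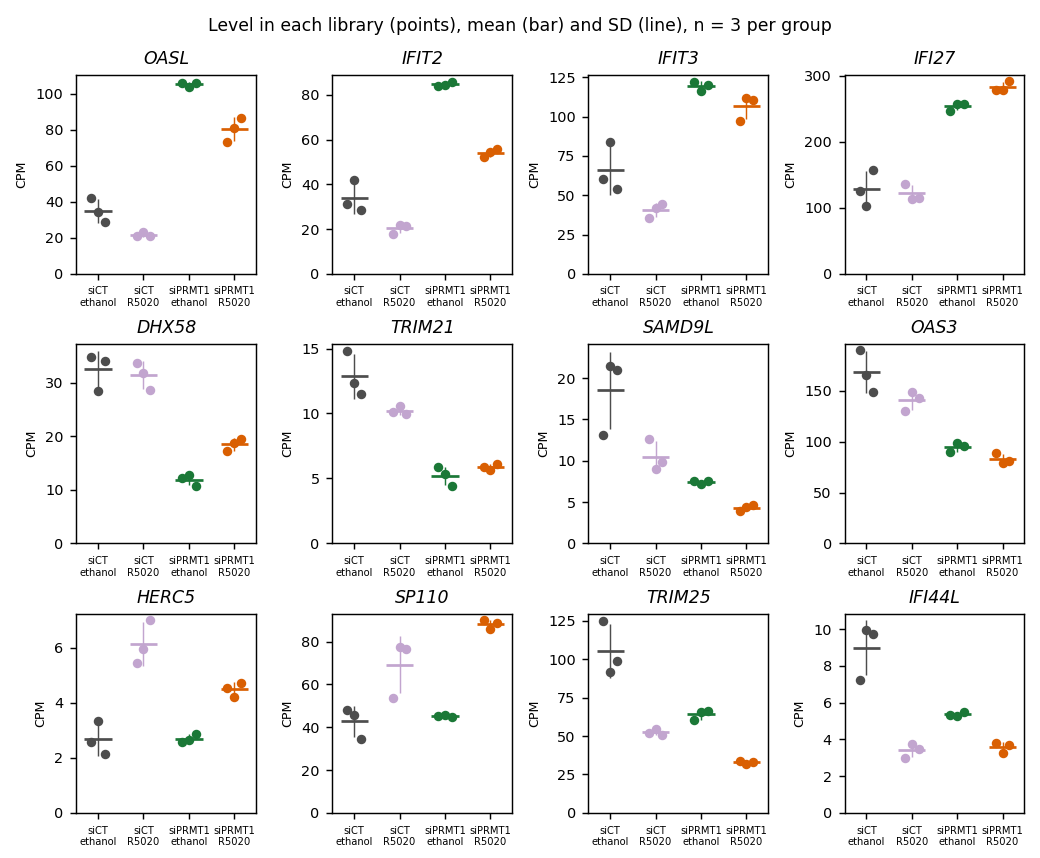
Level of 12 members in CPM in each library (points), with the group mean (bar) and SD (line, n = 3). OASL, IFIT2, IFIT3 and IFI27 are higher in all siPRMT1 libraries than in any siCT library, DHX58, TRIM21, SAMD9L and OAS3 are lower, and HERC5 and SP110 are higher and TRIM25 and IFI44L lower with R5020 within each siRNA.

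The ISG15 pathway attaches the ubiquitin-like protein ISG15 to other proteins through UBE2L6 and HERC5, and USP18 removes it. In this group siPRMT1 raised 0 of 5 and lowered 1, against 21.6% and 26.9% of all genes. R5020 raised 1 and lowered 1, against 13.2% and 12%. HERC5, the main ligase, was at 2.56, 3.33 and 2.13 CPM in ethanol and 5.45, 5.96 and 7.0 CPM in R5020 with siCT, and 2.57, 2.63 and 2.88 CPM in ethanol and 4.56, 4.23 and 4.73 CPM in R5020 with siPRMT1. All R5020 libraries lay above all ethanol libraries of the same siRNA, with an average effect of 0.96 ± 0.13 (SE), adjusted p = 8.98e-05, the largest rise with R5020 among the 51 genes. It was 1.18 in siCT and 0.74 in siPRMT1 cells, with an interaction of -0.44 ± 0.26 (SE), adjusted p = 1. HERC6, its neighbour on chromosome 4, passed in no comparison with all 12 libraries, with an R5020 effect of -0.23 (adjusted p = 0.0965), and -0.28 ± 0.08 (SE), adjusted p = 0.0194 without the pair. The siPRMT1 effect on HERC5 was -0.23 (adjusted p = 0.167), and -0.31 ± 0.11 (SE), adjusted p = 0.0259 without the pair. USP18, which also restrains signalling at IFNAR2, fell with R5020 (-0.52 ± 0.14 (SE), adjusted p = 0.0147). Its siPRMT1 effect was -0.41 ± 0.14 (SE), adjusted p = 0.0296, a call lost in 6 of the 12 fits that leave out 1 library. ISG15 itself ran from 25.7 to 80.3 CPM, UBE2L6 from 192 to 438 CPM, and neither passed in any comparison with all 12 libraries. Both had their lowest value in siCT ethanol replicate 3. Without the pair their siPRMT1 effects were -0.52 ± 0.13 (SE), adjusted p = 0.00544 for ISG15, and -0.22 ± 0.05 (SE), adjusted p = 0.00437 for UBE2L6.

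In the PARP and TRIM group, 5 of 6 fell with siPRMT1 and 0 rose, against 26.9% and 21.6% of all genes. TRIM21, an antibody receptor and ubiquitin ligase of the cytoplasm, was at 14.8, 12.3 and 11.5 CPM in ethanol and 10.1, 10.6 and 9.96 CPM in R5020 with siCT, and 5.84, 5.32 and 4.43 CPM in ethanol and 5.88, 5.61 and 6.11 CPM in R5020 with siPRMT1. Every siPRMT1 library lay below every siCT library, with an effect of -1.06 ± 0.11 (SE), adjusted p = 1.24e-05. The R5020 effect was -0.08 (adjusted p = 0.655). TRIM25, the ubiquitin ligase that activates RIG-I and is also known as an estrogen-responsive gene, was at 125, 91.4 and 99.0 CPM in ethanol and 51.9, 54.9 and 50.9 CPM in R5020 with siCT, and 60.2, 65.9 and 66.5 CPM in ethanol and 33.5, 31.8 and 33.2 CPM in R5020 with siPRMT1. Each of the 4 groups was separate from the groups it was compared with, and the siPRMT1 R5020 libraries were lowest. The R5020 effect was -0.98 ± 0.10 (SE), adjusted p = 5.88e-06, and it was -1.0 in siCT and -0.97 in siPRMT1 cells. The siPRMT1 effect on TRIM25 was -0.70 ± 0.10 (SE), adjusted p = 0.000125.

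PARP14, a mono-ADP-ribosyltransferase, was at 125, 139 and 189 CPM in ethanol and 156, 108 and 114 CPM in R5020 with siCT, and 78.6, 82.9 and 84.3 CPM in ethanol and 75.5, 77.1 and 74.4 CPM in R5020 with siPRMT1. The siPRMT1 libraries lay below all siCT libraries, and the pair high in mitochondrial RNA gave the highest values of its groups. For siPRMT1 the log2 effect was -0.81 ± 0.13 (SE), adjusted p = 0.000275, and -0.61 ± 0.06 (SE), adjusted p = 5.07e-06 without the pair. The R5020 effect was -0.19 (adjusted p = 0.323), and -0.20 ± 0.06 (SE), adjusted p = 0.017 without the pair. PARP9, whose protein pairs with the ubiquitin ligase DTX3L, fell with siPRMT1 (-0.37 ± 0.08 (SE), adjusted p = 0.00286). DTX3L, its neighbour on chromosome 3, was called in no comparison with all libraries, with -0.28 (adjusted p = 0.107), and passed at -0.44 ± 0.07 (SE), adjusted p = 0.000217 without the pair. PARP12 gave -0.24 ± 0.09 (SE), adjusted p = 0.0405 with siPRMT1, a call lost in 9 of the 12 fits that leave out 1 library.

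Of the other 6 members, siPRMT1 lowered 3, against 26.9% of all genes. R5020 raised 1 and lowered 3 of the 6, against 13.2% and 12%. IFI35, which forms a complex with NMI, was at 49.7, 33.4 and 27.9 CPM in ethanol and 23.8, 35.4 and 30.4 CPM in R5020 with siCT, and 19.0, 20.6 and 16.2 CPM in ethanol and 17.5, 17.4 and 18.6 CPM in R5020 with siPRMT1. The siPRMT1 values lay below all siCT values, and the highest was siCT ethanol replicate 1. The siPRMT1 effect was -0.87 ± 0.15 (SE), adjusted p = 0.000425, and R5020 gave -0.19 (adjusted p = 0.408). EPSTI1 fell with siPRMT1 (-0.58 ± 0.17 (SE), adjusted p = 0.0135). Its R5020 effect was -0.34 (adjusted p = 0.173), and -0.48 ± 0.15 (SE), adjusted p = 0.0272 without the pair. SP110, a nuclear body protein, was at 48.2, 45.6 and 34.4 CPM in ethanol and 53.9, 77.4 and 76.5 CPM in R5020 with siCT, and 45.4, 45.8 and 44.8 CPM in ethanol and 90.1, 86.0 and 88.6 CPM in R5020 with siPRMT1. The R5020 libraries were higher than the ethanol libraries of the same siRNA without overlap, by 0.83 ± 0.12 (SE), adjusted p = 0.000139, and the siPRMT1 effect was 0.22 (adjusted p = 0.145).

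IFI44L and IFI44, neighbours on chromosome 1 whose proteins limit viral growth, fell together with R5020. IFI44L was at 7.25, 9.94 and 9.73 CPM in ethanol and 2.99, 3.75 and 3.47 CPM in R5020 with siCT, and 5.35, 5.27 and 5.47 CPM in ethanol and 3.78, 3.28 and 3.69 CPM in R5020 with siPRMT1. IFI44 was at 7.44, 10.4 and 9.46 CPM in ethanol and 4.56, 4.85 and 5.68 CPM in R5020 with siCT, and 9.34, 8.65 and 10.4 CPM in ethanol and 5.33, 6.81 and 5.95 CPM in R5020 with siPRMT1. For both, every R5020 library lay below every ethanol library of the same siRNA. The R5020 effect was -0.99 ± 0.12 (SE), adjusted p = 3.06e-05 for IFI44L, and -0.75 ± 0.12 (SE), adjusted p = 0.000409 for IFI44. IFI44L had -1.39 in siCT and -0.58 in siPRMT1 cells, with an interaction of 0.81 ± 0.24 (SE), adjusted p = 0.51. Its siPRMT1 effect of -0.33 ± 0.12 (SE), adjusted p = 0.0325 was lost in 8 of the 12 fits that leave out 1 library, and IFI44 gave 0.16 (adjusted p = 0.291). XAF1, which opposes the apoptosis inhibitor XIAP, gave -0.60 ± 0.19 (SE), adjusted p = 0.0334 with R5020, a call lost in 9 of the 12 fits that leave out 1 library, siCT ethanol replicate 3 among them.

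**Figure D4:**
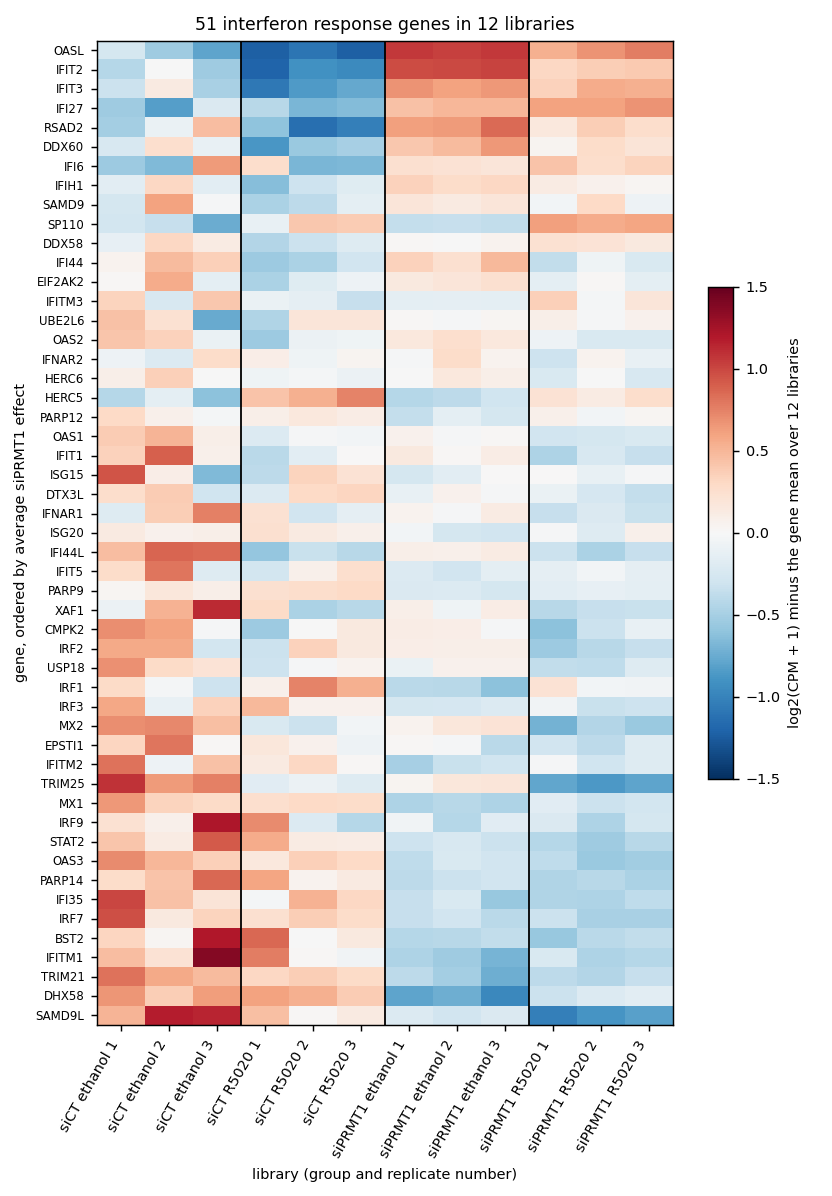
Level of each of the 51 genes (rows, ordered by the average siPRMT1 effect) in each of the 12 libraries (columns), as log2(CPM + 1) minus the gene's mean over libraries, red above and blue below it. The rows from OASL to DDX60 are mostly red in siPRMT1 libraries, those from IRF3 down to SAMD9L are mostly blue there, and siCT ethanol replicate 3 and siCT R5020 replicate 1 differ from their groups in IFI6, BST2 and IFITM1.

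Adjacent genes did not always share a call. The 51 genes hold 12 adjacent pairs, formed by 22 members, so neighbours and paralogs are not independent. IFIT2 and IFIT3 rose together with siPRMT1, MX1 and MX2 fell together, as did IFITM1 and IFITM2, and IFI44 and IFI44L fell together with R5020. RSAD2 rose with siPRMT1 while its neighbour CMPK2 had a fitted value below 0. By promoter, the ISRE core was in 5 of 5 matched genes raised by siPRMT1, 11 of 17 lowered and 10 of 18 not called. For R5020 it was in 1 of 3 raised, 6 of 11 lowered and 19 of 26 not called. The GAS core was in 2 of 5, 8 of 17 and 2 of 18 for siPRMT1, and in 2 of 3, 2 of 11 and 8 of 26 for R5020. These counts are a description of the matched promoters, whose members are the same 40 genes in each split.

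Upstream of the response, the interferon ligand genes that were looked up had few or no counts. Of these 10 chosen genes, IFNA1, IFNA2, IFNE, IFNK and IFNG had 0 counts in all 12 libraries and IFNW1 had 1 count in 1 library. Other members of the IFNA family were not looked up. IFNB1 had 2 to 12 counts per library, IFNL2 2 to 13 and IFNL3 1 to 9. Of the 10, only IFNL1, with 4 to 19 counts, was tested. It passed in no comparison, the smallest adjusted p being 0.227 for siPRMT1 in R5020.

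Of 13 other receptor, kinase, STAT and feedback genes, all tested, siPRMT1 raised 1 (7.69%, against 21.6% of all genes) and lowered 2 (15.4%, against 26.9%), and R5020 raised 3 (23.1%, against 13.2%) and lowered 3 (23.1%, against 12%). JAK2, a kinase of the type II interferon and cytokine receptors, was at 2.2 ± 0.929 CPM in ethanol and 7.27 ± 0.674 CPM in R5020 with siCT, and 5.01 ± 0.583 CPM in ethanol and 15.3 ± 1.01 CPM in R5020 with siPRMT1 (SD, n = 3). It rose with R5020 (1.65 ± 0.16 (SE), adjusted p = 4.4e-06) and with siPRMT1 (1.12 ± 0.16 (SE), adjusted p = 0.000134). STAT3, which serves other cytokines, rose with R5020 (0.73 ± 0.11 (SE), adjusted p = 0.00022). Both chains of the type III interferon receptor fell with siPRMT1, IL10RB with -1.03 ± 0.16 (SE), adjusted p = 0.000275, and IFNLR1 with -0.76 ± 0.14 (SE), adjusted p = 0.000995. IFNLR1 also fell with R5020 (-0.88 ± 0.14 (SE), adjusted p = 0.000468).

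Among 18 further sensing genes, 15 were tested. siPRMT1 raised 2 (13.3%) and lowered 4 (26.7%, near the 26.9% of all genes), and R5020 raised 1 (6.67%) and lowered 3 (20%, against 12%). TMEM173, the DNA-sensing adaptor STING, was at 2.98 ± 1.52 CPM in ethanol and 4.18 ± 1.37 CPM in R5020 with siCT, and 0.983 ± 0.292 CPM in ethanol and 2.25 ± 0.410 CPM in R5020 with siPRMT1 (SD, n = 3). It fell with siPRMT1 (-1.22 ± 0.26 (SE), adjusted p = 0.00196), as did TREX1, the exonuclease that clears cytoplasmic DNA (-1.13 ± 0.23 (SE), adjusted p = 0.0014), and IKBKE, a kinase that activates IRF3 (-0.77 ± 0.15 (SE), adjusted p = 0.00112). For TREX1 the ethanol ranges overlapped, at 1.56 to 3.66 CPM with siCT and 1.01 to 1.61 CPM with siPRMT1. The R5020 ranges did not, at 1.53 to 2.46 CPM and 0.599 to 0.872 CPM. TANK, a scaffold of that kinase, fell with R5020 (-0.67 ± 0.11 (SE), adjusted p = 0.000338).

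Of 35 other interferon-induced genes, 30 were tested. siPRMT1 raised 6 (20%) and lowered 10 (33.3%), near the 21.6% and 26.9% of all genes, and R5020 raised 3 (10%, against 13.2%) and lowered 8 (26.7%, against 12%). TRIM22, an antiviral ubiquitin ligase, was at 5.06 ± 0.384 CPM in ethanol and 54.0 ± 6.12 CPM in R5020 with siCT, and 1.37 ± 0.222 CPM in ethanol and 35.0 ± 1.75 CPM in R5020 with siPRMT1 (SD, n = 3). Its R5020 effect was 4.04 ± 0.12 (SE), adjusted p = 7.99e-11, larger than that of any of the 51 members, and its siPRMT1 effect was -1.25 ± 0.11 (SE), adjusted p = 3.1e-06. TRIM14, an adaptor of MAVS signalling, also rose with R5020 (1.02 ± 0.10 (SE), adjusted p = 4.02e-06) and fell with siPRMT1 (-0.48 ± 0.10 (SE), adjusted p = 0.00161). GBP4, a guanylate-binding protein, rose with siPRMT1 (1.17 ± 0.15 (SE), adjusted p = 7.52e-05), and APOBEC3F, a cytidine deaminase that mutates retroviral DNA, fell (-1.26 ± 0.17 (SE), adjusted p = 9.22e-05).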

How the data were processed

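RNA-seq was made from 12 T47D samples with TRIzol RNA and Lexogen's SENSE mRNA kit, per the labels' protocols. The authors deposited, for each sample, unnormalized whole-number read counts for 55765 gene symbols. Bowtie2 2.3.2.2, HTSeq 0.9.1, DESeq2 and the build hg19 are named, without role or order, per the submitters' processing notes; annotation, strand setting and duplicate handling were not given in those sources. Samples were grouped by their siRNA and treatment labels.

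Counts were tested with edgeR 4.0.16 (R 4.3.3): filterByExpr (17727 genes kept), TMM scaling, 1 mean per group over all 12 libraries, quasi-likelihood tests, and Benjamini-Hochberg adjustment over all kept genes with a threshold of 0.05. Standard errors are the log2 fold change divided by the root of F. The 4 simple comparisons, both average effects and the interaction were tested, 7 in all. The fitting steps were checked on data simulated for siPRMT1 in ethanol alone, with few changed genes and as many rises as falls. That check cannot tell which scaling suits the real libraries. The alternatives were DESeq2 1.42.0, RLE size factors, library totals alone, mitochondrial genes left out, no low-count filter, a replicate block, limma 3.58.1 voom quality weights, only the groups compared, no high-mitochondrial pair, and each library left out. The heatmap uses log2(CPM + 1).

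The 51 members, the pathway lists and the tests were chosen with earlier results of these data known. Of the 40 members called in at least 1 comparison, the 20 with the smallest adjusted p are given in every library. Up to 4 genes of each pathway list are named by the same order. IRF1, BST2 and IFITM1, which were also called, and IFI6, which was not, are given in every library outside that order. One gene of the pathway lists is not reported here. Promoter and motif matches use RefSeq sequence of another build than the counts, matched by symbol. Depth of 26783525 to 34120937 counts per library sets the counting error, and 3 replicates per group set the rest.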

Additional observations from a re-analysis of the deposited data

How the results depend on the processing

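Of 118 called values of single members, 0 reversed under any alternative. The alternatives reuse the same libraries, and the 118 hold average effects beside the simple effects that make them up. A reversal was therefore unlikely from the start. DESeq2 kept 118, the fit without the high-mitochondrial pair kept 117, and library totals alone kept 60. Scaling by library totals moved the median of all genes by -0.17 for R5020 in siPRMT1, 0.18 for siPRMT1 in ethanol, -0.14 for the interaction and 0.11 for the siPRMT1 average, on the log2 scale. With it the members raised and lowered were 1 and 6 for R5020 in siCT (all genes 4.9% and 4.01%), 0 and 4 for R5020 in siPRMT1 (5.06% and 6.58%), 6 and 7 for siPRMT1 in ethanol (7.47% and 9.57%), 6 and 5 for siPRMT1 in R5020 (4.2% and 9.51%), 2 and 10 for the R5020 average (8.06% and 12.6%), and 7 and 13 for the siPRMT1 average (15.9% and 18%). Voom quality weights gave 9 raised and 22 lowered for R5020 in siPRMT1 (all genes 23.7% and 22.5%), and 12 and 26 for siPRMT1 in R5020 (27.3% and 28.3%). Fits on only the groups compared gave 1 and 3 for R5020 in siCT (all genes 3.71% and 1.48%), and 10 and 24 for R5020 in siPRMT1 (23.2% and 21.6%). Without the high-mitochondrial pair 21 were lowered by R5020 in siCT, 5 raised and 15 lowered by R5020 in siPRMT1, 29 lowered by siPRMT1 in ethanol, 20 lowered by siPRMT1 in R5020, and 25 by the R5020 average. Leaving out 1 library at a time gave 1 to 3 members raised by R5020 in siCT (all genes 5.73% to 9.7%). It gave 2 to 11 lowered by R5020 in siPRMT1 (3.5% to 10.1%), and 6 to 17 lowered by siPRMT1 in R5020 (7.43% to 20.4%). In all 12 of those fits, 7 of 7 members stayed called raised and 18 of 24 called lowered for the siPRMT1 average, and 3 of 4 and 12 of 16 for the R5020 average. The cause of these moves was not tested.

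Replicate numbers showed no consistent pairing of the libraries. Of 18 same-numbered pairs, 3 correlated above 0.1 in their deviations from the group means, with values from -0.667 to 0.290. Of 12 libraries, 2 matched their own number best. The libraries high in mitochondrial RNA carry different numbers, 3 in siCT ethanol and 1 in siCT R5020. The correlations were not repeated without them, so pairing is neither shown nor excluded. With a replicate block 2 members were raised and 10 lowered for R5020 in siCT (all genes 6.54% and 4.12%). The counts were 3 and 5 for R5020 in siPRMT1 (8.05% and 4.8%). They were 6 and 17 for siPRMT1 in ethanol (11.8% and 16.1%), and 7 and 10 for siPRMT1 in R5020 (9.62% and 12.1%). The R5020 average gave 3 and 14 (12.1% and 10.1%), and the siPRMT1 average 7 and 19 (20.2% and 24.7%). The interaction gave 0 and 0, and 0% of all genes. Members with few counts, such as HERC5 and IRF9, carry the most counting error.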
